A study of Mus musculus with 112 samples.

Results

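The 38 Hox genes examined here lie in 4 clusters, with 10 genes in Hoxa, 10 in Hoxb, 9 in Hoxc and 9 in Hoxd, out of 21938 protein-coding genes of the annotation. They were taken by name, with no measured value used, and each gene was followed from 2 kb upstream of its start to its end on the mm10 build. The windows held 5286 of the 3853391 CpG cytosines with a value in F0 sperm, 3445 of 2224819 in F1 sperm and 4960 of 2514705 in F1 brain. By cluster, F0 sperm had 1546 such cytosines in Hoxa, 1176 in Hoxb, 1027 in Hoxc and 1537 in Hoxd. The windows ran over chr6:52162417-52262880 for Hoxa (100 kb), chr11:96192316-96368256 for Hoxb (176 kb), chr15:102919103-103036852 for Hoxc (118 kb) and chr2:74666310-74765142 for Hoxd (98.8 kb). Of the 38 windows, 24 overlap the window of another Hox gene, so neighbouring genes share cytosines and are not independent measurements. A region is named here by the shortest window it falls in.

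Hox genes encode homeodomain transcription factors that give body segments their identity along the head to tail axis. Within a cluster the genes are arranged in the order in which they act along that axis, with the low paralogue numbers acting toward the head and the high numbers toward the tail and limb ends. In cells that do not use them the clusters are known as CpG-rich ground held by Polycomb complexes, which place a repressive histone mark, and most of this ground carries little DNA methylation (DNAme). In mouse sperm many developmental promoters, those of Hox genes among them, are known to keep histones and to lack DNAme.

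The study asked whether cigarette smoke (CS) breathed by a father, or his loss of NRF2, changes DNAme in his sperm and in his sons, and used bisulfite reads of enzyme-cut, CpG-rich DNA (RRBS) for it. All F0 males were C57BL/6J, either WT or Nrf2-/-, the latter without a working Nfe2l2, the gene of a transcription factor that switches on antioxidant defence. Of F0 sperm there were 10 libraries of WT males kept without CS (control WT), 9 of WT males that breathed it (smoked WT) and, from WT males returned to clean air for increasing times, 9 called recovery 1, 10 called recovery 2 and 10 called recovery 3. A further 10 libraries came from Nrf2-/- males without CS (control Nrf2-/-) and 9 from Nrf2-/- males with it (smoked Nrf2-/-). Sperm of the next generation (F1) comprised 6 libraries where the sire was control WT and 7 where he was smoked WT. F1 brain was prefrontal cortex of male offspring, with 8 libraries for each of 4 kinds of sire, WT or Nrf2-/- and control or smoked. Sons were never exposed, and those of Nrf2-/- sires carry the targeted allele on 1 chromosome only. All sons had CAST/EiJ mothers, so that 1 allele carries the sequence of another strain, and a CpG absent from that strain cannot be told apart from an unmethylated allele. The recovery groups were collected later than the control group they are compared with, so that time after CS and age cannot be told apart. In a bulk sample a middle percent in all cells and a high percent in part of the cells cannot be told apart either.

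Libraries had values at 800578 to 1855546 cytosines in F0 sperm (1506 to 3332 in the Hox windows), 510212 to 1429060 in F1 sperm (255 to 2518) and 1332684 to 1711088 in brain (3012 to 4421), so F1 sperm was the thinnest set. Promoters of imprinted genes that are unmethylated in sperm (9 of 12 measured, 8 in F1 sperm) had group means of 0.96 to 1.49% in F0 sperm, 2.05 to 2.85% in F1 sperm and 18.6 to 26.1% in brain. Promoters of germline genes (10 of 10 measured, 9 in brain) had 1.82 to 2.72%, 2.58 to 3.73% and 79.1 to 81.3%, so the tissue labels matched these markers. A pair of libraries stood apart from their groups. Control F1 sperm column 3 had 10.6% at the germline and 8.33% at the imprinted promoters and the fewest Hox cytosines (255), and smoked WT sire brain column 8 had 62% and 8.75%. In brain of sons of smoked Nrf2-/- sires, columns 2, 4 and 5 had 74.8, 74.4 and 77.5% at the germline promoters, where the other libraries of the group had 79.5 to 84.9%, and 9.9, 13 and 12.5% at the imprinted promoters, where the others had 15.6 to 28.6%. These 5 libraries were singled out after their values were seen, and values without them are given beside the counts and named regions they touch, as far as those could be computed. In the targeted gene, Nfe2l2, 4 of the 6 cytosines with a value in every WT F0 library had none in any Nrf2-/- library.

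Hox windows carried little DNAme in every tissue, and less than most genes. In control WT F0 sperm the median level over the 38 windows was 1.44%, against 18.9% over all 17113 gene windows with enough cytosines, and 81.6% of the Hox windows were under 5% against 23.7% of all windows. Control brain had a median of 2.71% over 38 Hox windows against 23.8% over all 17579, and 86.8% against 15.3% of windows were under 5%. In control F1 sperm, where 34 Hox windows had enough cytosines, the medians were 2.14% and 26.8%. Levels in each set are over the cytosines measured in that set, which differ between sets.

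Most of this contrast with other genes lay outside the promoters. Within 500 bp of a start, Hox genes of control F0 sperm had a median of 0.847% (29 genes) and all genes 0.722% (12153 genes), so promoters of both kinds were nearly free of DNAme. In control brain the medians within 500 bp were 2.12% for 32 Hox genes and 0.723% for 12816 genes, with the Hox promoters the higher of the pair. Averaged over the 721 cytosines near Hox starts, control F0 sperm had 0.966 ± 0.656% (SD, n = 10, range 0.325 to 2.58%). The 1001 such cytosines of brain averaged 2.23 ± 0.177% (SD, n = 8, range 1.95 to 2.50%). F1 sperm had 1.05 ± 0.326% over 236 cytosines (SD, n = 6).

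Away from the starts, a few places carried much of the DNAme of a cluster. Cytosines further upstream than 500 bp had, in Hoxb, 25.4 ± 3.15% in control F0 sperm (SD, n = 10, 46 cytosines, range 18.3 to 28.4%), 28.4 ± 9.37% in control F1 sperm (SD, n = 6, 20 cytosines) and 7.26 ± 0.928% in control brain (SD, n = 8, 57 cytosines). The Hoxb value of F0 sperm was carried by the cytosines before 2 genes, 9 in the Hoxb4 window with 75.5 ± 6.01% and 4 in the Hoxb3 window with 87.3 ± 17.8%, while those before Hoxb13 (15 cytosines), Hoxb5 (4) and Hoxb9 (14) had 6.48%, 2.69% and 1.03%. Without the Hoxb4 window, F0 sperm had 12.4 ± 3.20%, F1 sperm 6.03 ± 2.70% and brain 7.46 ± 1.02%. Upstream cytosines were higher in brain in Hoxa, with 3.52% in F0 sperm and 9.55% in brain, and in Hoxd, with 1.32% and 5.79%. In Hoxa 4 cytosines of the Hoxa7 window had 12.4% and 44.2%, and without them the values were 0.121% and 2.06%. In Hoxd, leaving out the window of any one gene left 1.21 to 1.54% in F0 sperm and 5.12 to 7.30% in brain. Inside the Hoxd genes, away from the starts, F0 sperm had 4.84%, F1 sperm 11.9% and brain 3.42%. Taken over all positions, control F0 sperm had 1.58% in Hoxa, 3.82% in Hoxb, 2.79% in Hoxc and 3.45% in Hoxd, and brain had 3.03%, 3.18%, 3.5% and 3.24%.

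**Figure D1:**
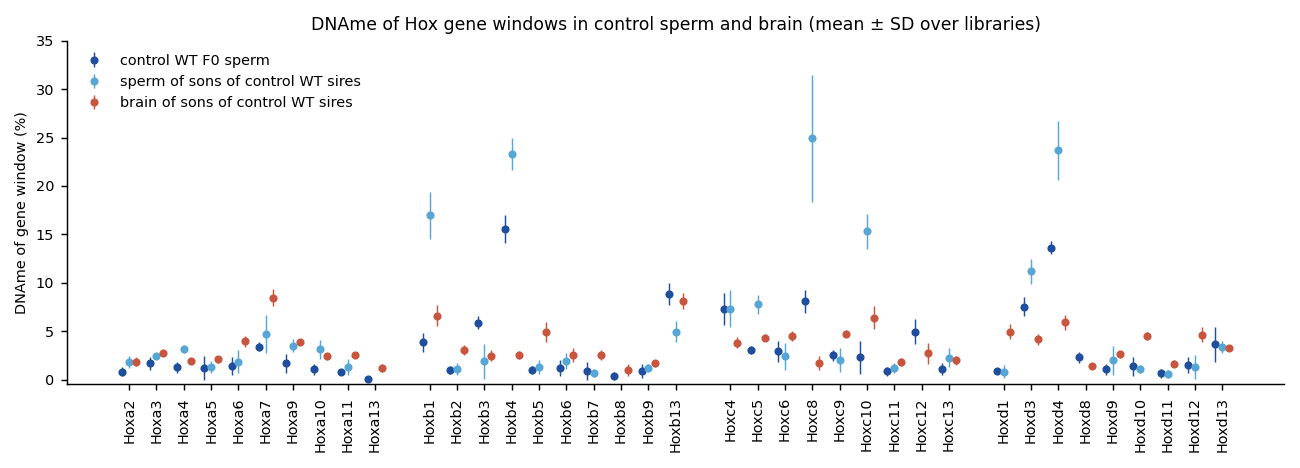
DNAme of each Hox gene window (vertical axis, percent) in control WT F0 sperm, sperm of sons of control WT sires and brain of sons of control WT sires, points being means and bars SDs over libraries. Most windows sit under 5% in all 3 sets, and the sperm points of Hoxb4, Hoxc8 and Hoxd4 rise above their brain points.

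Among single genes of control F0 sperm the lowest window was Hoxa13, a gene of limb ends and the urogenital tract, with 0.08 ± 0.20% (SD, n = 6, range 0 to 0.49%). Hoxb8, a gene of the trunk and spinal cord, had 0.36 ± 0.42% (n = 10), with a lowest library of 0%, a median of 0.27% and a highest of 1.47%. Hoxd11, which patterns the forearm, had 0.62 ± 0.43% (n = 9, 0.19%, 0.43% and 1.37%). These lowest windows overlapped each other and the next, Hoxa11 (0.782%), in their libraries, so their order is not resolved.

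The highest window of control F0 sperm was Hoxb4, a gene of the hindbrain, neck and blood stem cells, with 15.56 ± 1.47% (SD, n = 10), a lowest library of 13.48%, a median of 15.46% and a highest of 18.23%. Hoxd4, its paralogue in Hoxd, had 13.62 ± 0.70% (n = 10, 12.25%, 13.58% and 14.88%), and the libraries of the 2 genes overlapped. Hoxb13, the gene of the Hoxb cluster nearest the tail, had 8.84 ± 1.12% (n = 10, 6.66%, 8.97% and 10.28%), and all of its libraries lay below those of Hoxd4. It overlapped Hoxc8, a gene of the lower thorax, at 8.06%.

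In control brain the lowest windows were Hoxb8 with 0.96 ± 0.64% (SD, n = 8, lowest 0.17%, median 0.88%, highest 2.19%), Hoxa13 with 1.21 ± 0.43% (0.62%, 1.25% and 1.73%) and Hoxd8 with 1.35 ± 0.28% (0.96%, 1.30% and 1.90%), all overlapping. The highest were Hoxa7, a gene of the thorax, with 8.44 ± 0.87% (7.33%, 8.16% and 9.46%), Hoxb13 with 8.10 ± 0.80% (6.72%, 8.23% and 9.25%) and Hoxb1, a gene of a single hindbrain segment, with 6.60 ± 1.05% (4.90%, 7.0% and 8.0%). Hoxb13 was thus among the 3 highest windows of both F0 sperm and brain. The other 32 brain windows lay between, from 1.63% for Hoxd11 to 6.4% for Hoxc10.

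Control F1 sperm had its lowest values in Hoxd11 (0.57 ± 0.41%, SD, n = 4), Hoxb7 (0.66 ± 0.42%, n = 4) and Hoxd1 (0.82 ± 0.68%, n = 4). Its highest were Hoxc8 with 24.91 ± 6.54% (n = 5, range 21.04 to 36.44%), Hoxd4 with 23.67 ± 3.06% (n = 5, 19.54 to 27.91%) and Hoxb4 with 23.32 ± 1.67% (n = 4, 20.87 to 24.55%). Their ranges overlapped, and each window held fewer cytosines than in F0 sperm (13 against 37 for Hoxc8, 37 against 66 for Hoxd4 and 28 against 47 for Hoxb4).

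At the level of regions, which are runs of at least 3 measured cytosines no more than 100 bp apart, 132 of 142 Hox regions (93%) of control F0 sperm were under 5%, against 48.3% of all regions. Above 20% were 6 Hox regions (4.23%, against 45.2% of all regions), and 1 of the 142 was above 50%. These are the regions measured across all 7 F0 groups. Among the 159 regions shared by control F0 sperm and brain, which include the Hoxc9 intron region, 2 were above 50% in control F0 sperm. In brain 126 of 158 Hox regions (79.7%) were under 5% against 29.6% of all, and 4 (2.53% against 63.6%) were above 20%. F1 sperm had 53 of 64 (82.8%) under 5% against 36.6% of all. The median SD between libraries of a Hox region was 1.09 points in control F0 sperm, 1.13 in control F1 sperm and 1.03 in control brain, which set the size of difference that could be seen.

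Few Hox cytosines were methylated in sperm or brain. Of 2242 Hox cytosines measured in both control F0 sperm and control brain, 2060 (91.9%) were under 10% in both and 11 were above 20% in both. The 33 above 20% in sperm and under 10% in brain were mostly in Hoxb4 (8), Hoxc8 (6), Hoxd3 (6) and Hoxd4 (5). The 21 with the opposite pattern were spread more widely, with 4 in Hoxb13, 3 in Hoxa7 and 3 in Hoxd1. These counts were not set beside those of all cytosines.

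**Figure D2:**
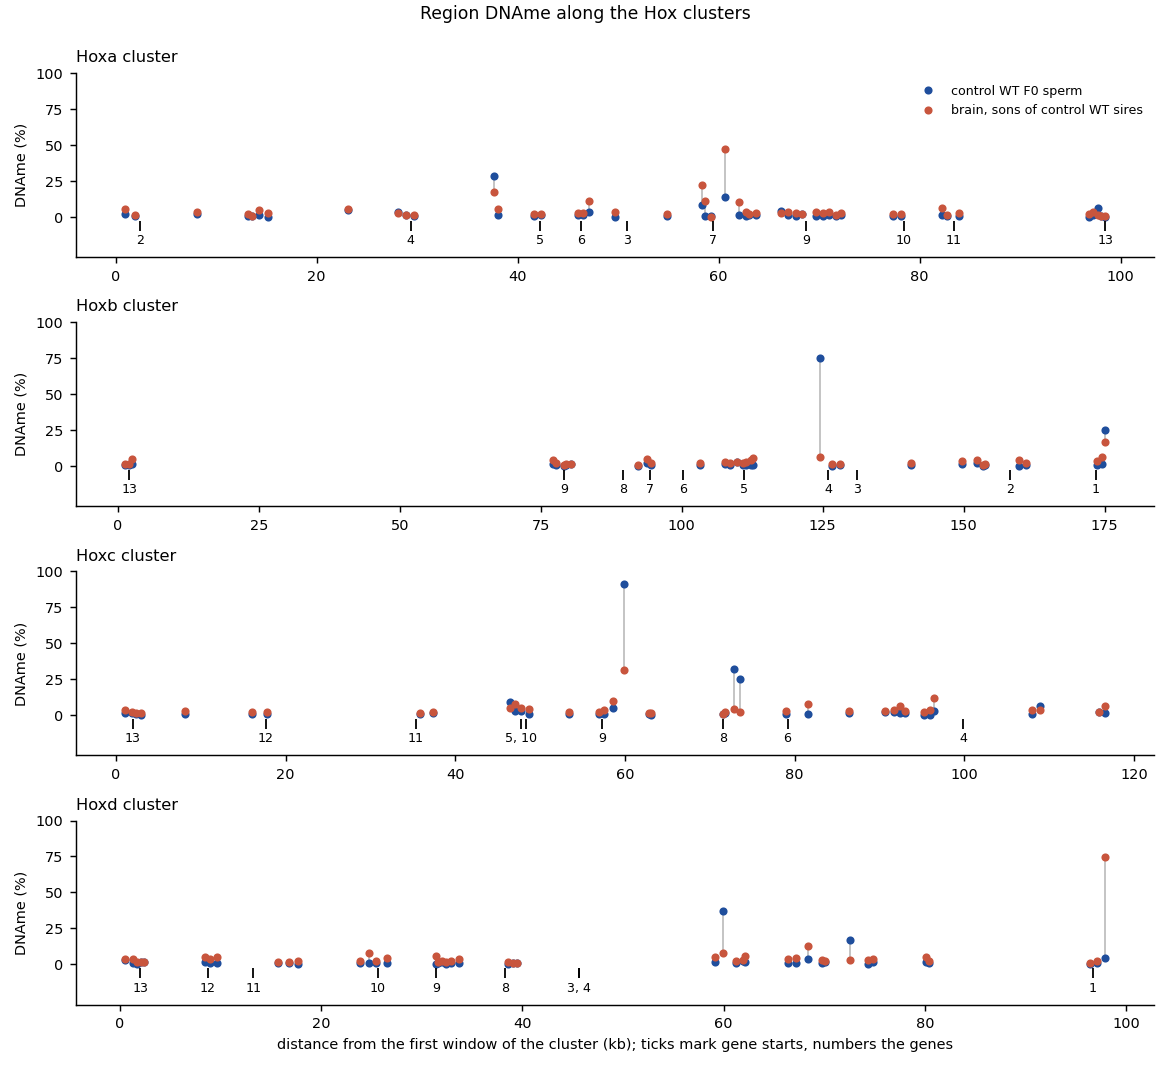
Region DNAme (vertical axis, percent) along each Hox cluster (horizontal axis, distance in kb from the first window) in control WT F0 sperm and brain of sons of control WT sires, with ticks at gene starts and grey lines joining the values of a region. Nearly all regions lie near 0 in both tissues, with isolated high points in sperm before Hoxb4, in Hoxc9 and Hoxc8 and near Hoxd4, and in brain at the Hoxa7 end and at the far end of Hoxd1.

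The sequences of 4 regions with large differences between sperm and brain are shown because they are the exceptions to the low DNAme of the clusters. All are from mm10, with each whole CpG in capitals, and they read 5′ to 3′ on the strand of the gene. The first base of the Hoxa7 sequence belongs to a measured CpG cut at the edge of the region and is in lower case. Hoxb4 (chr11:96316844-96316945, + strand) lies between genes, 1373 bp before the Hoxb4 start. Hoxc9 (chr15:102978910-102978986, + strand) is in an intron. Hoxc8 (chr15:102992583-102992725, + strand) is in the coding exon with the homeobox, the part that encodes the DNA-binding homeodomain. Hoxa7 (chr6:52220650-52220809, - strand) is in an intron, 1125 bp into the gene.
Hoxb4: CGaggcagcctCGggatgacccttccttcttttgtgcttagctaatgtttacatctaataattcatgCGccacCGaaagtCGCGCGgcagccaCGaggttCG
Hoxc9: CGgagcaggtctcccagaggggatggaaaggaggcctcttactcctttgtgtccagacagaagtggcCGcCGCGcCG
Hoxc8: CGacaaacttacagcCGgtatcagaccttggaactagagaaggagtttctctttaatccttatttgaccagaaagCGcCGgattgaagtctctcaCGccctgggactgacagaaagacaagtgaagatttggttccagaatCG
Hoxa7: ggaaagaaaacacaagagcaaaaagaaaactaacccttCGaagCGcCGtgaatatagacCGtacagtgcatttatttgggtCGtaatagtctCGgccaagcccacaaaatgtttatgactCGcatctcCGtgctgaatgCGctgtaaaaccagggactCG

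The ratio of observed to expected CpGs was 1.27 in the Hoxb4 region and 1.20 in the Hoxa7 region, and 0.648 and 0.789 in Hoxc9 and Hoxc8. The Hoxb4 region, methylated in sperm, was thus CpG dense.

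The comparison of brain with sperm of unexposed sons asks how far germline and soma differ at these genes. Against F1 sperm, limma with Benjamini-Hochberg adjustment over all regions called 33 of 56 Hox regions (58.9%), 26 higher and 7 lower in brain, where 55% of all 30915 regions were called. By direction, 46.4% of the Hox regions were higher and 12.5% lower in brain, against 29.3% and 25.7% of all regions. Only the summed share was near the background. The median Hox region had 1.32% in F1 sperm, so most had little room to be lower in brain. By cluster, 7 of 13 regions were called in Hoxa, 7 of 10 in Hoxb, 7 of 13 in Hoxc and 12 of 20 in Hoxd. The median difference was 1.39 points higher in brain over Hox regions and 0.179 points over all regions, and 22 of the 33 called differences were under 5 points. Without control F1 sperm column 3 the counts were again 26 higher and 7 lower. Both tissues were under 5% in 39 of the 56 regions.

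With the 10 libraries of control WT F0 sperm in place of F1 sperm, 63.5% of 159 Hox regions were called, 92 higher and 9 lower in brain, against 60.5% of all 71263 regions. By direction these were 57.9% and 5.66% of the Hox regions, beside 26.4% and 34.1% of all regions. The median Hox region had 1.05% in F0 sperm, again with little room to be lower in brain. Here the median difference was 1.5 points over Hox regions and -0.127 points over all, and 80 of the called differences were under 5 points. F0 males were wholly C57BL/6J and a generation older, so strain and generation differ along with tissue, and both comparisons use the same brain libraries. The sequencing facility numbered the sets in separate series, 14840 for F0 sperm, 15113 for F1 sperm and 14886 for brain. Series and tissue therefore cannot be told apart in either comparison.

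The largest gain in brain was in a coding exon region of Hoxd1, the gene at the head end of Hoxd. Its 3 measured cytosines had 61.5%, 74.1% and 89.3% in the lowest, median and highest of 8 control brain libraries, and 0, 0, 0, 4.44 and 11.5% in the 5 libraries of control F1 sperm. No sperm library came near a brain library. The difference was 71.7 ± 3.77 points (limma estimate ± SE, adjusted p = 2.03e-09). In 10 control F0 sperm libraries the region had 0, 4.0 and 7.69% at the lowest, the median and the highest, and the difference was 70.7 ± 2.56 points (adjusted p = 1.46e-14).

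Hoxa7 differed at 2 places. In its intron, brain libraries had 16.6, 20.1 and 22.3% (lowest, median, highest, n = 8) over the 9 cytosines shared with F1 sperm, which had 2.11, 6.71 and 10.7% (n = 6). The libraries did not overlap, and brain was 13.4 ± 1.40 points higher (adjusted p = 1.26e-06; 12.65 ± 1.35 points without column 3, adjusted p = 2.97e-06). The second place, chr6:52222958-52223140, lies 1195 bp before the Hoxa7 start in a UTR of Hoxa9, the next gene of the cluster, and was measured in F0 sperm. Brain had 37.8, 45.6 and 55.7% there and F0 sperm 9.66, 13.4 and 20.5% (n = 10), a difference of 33.2 ± 2.02 points (adjusted p = 3.82e-11) with no overlap.

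Smaller gains were found in Hoxd10, Hoxa11 and Hoxb5. At chr2:74691074-74691146, 814 bp before the start of Hoxd10, a gene of the lower spinal cord and limb, brain had 4.28, 8.65 and 11.4% and the 4 F1 sperm libraries had 0, 0, 0 and 1.05% (8.08 ± 1.10 points, adjusted p = 4.72e-05). The Hoxa11 intron region at chr6:52244585-52244694 had 3.91, 9.11 and 12.1% in brain and 0, 2.88 and 3.75% in F1 sperm (n = 6), a difference of 5.69 ± 1.19 points (adjusted p = 0.000905, and 5.19 ± 1.22 points and 0.00253 without column 3). In the coding exon of Hoxb5 at chr11:96304849-96305033 brain had 3.97, 5.28 and 8.28%, and the 5 F1 sperm libraries had 0.204, 0.391, 0.446, 0.956 and 2.56% (4.73 ± 0.803 points, adjusted p = 0.000213). Libraries of control brain and control F1 sperm did not overlap in any of the 3. Over all 7 F0 sperm groups the highest libraries had 10, 7.69 and 4.91% at Hoxd10, Hoxa11 and Hoxb5. The lowest libraries of the 4 brain groups had 4.28, 3.91 and 3.73%, so F0 sperm and brain overlapped at each. Over both F1 sperm groups the highest Hoxa11 library had 4.17%, which overlapped brain as well.

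The largest loss in brain was at the region before Hoxb4. Control F0 sperm had 62.9, 76.4 and 82.5% (n = 10) and control brain 4.33, 5.59 and 9.98% (n = 8) over 9 cytosines. All sperm libraries were far above all brain libraries, and brain was lower by 69.1 ± 2.16 points (adjusted p = 1.55e-15). In F1 sperm the measured cytosines of this region spanned less than the 50 bp a region needs, so it was not tested there, and the 5 control libraries with a value had 64.3, 72.9, 73.5, 83.3 and 84.6%. The Hoxb4 gene window as a whole had 2.71% in brain and 33.0% in F1 sperm (n = 5) over 19 cytosines (adjusted p = 1.56e-09).

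The intron region of Hoxc9, a gene of the thorax, had 85.2, 91.4, 92.5, 92.9 and 93.3% in the 5 control F0 sperm libraries that covered it, and 20.7, 30.2 and 42.9% in brain. It was the most methylated Hox region of sperm, and brain was lower by 59.6 ± 3.35 points (adjusted p = 2.02e-09). Brain libraries also spread widely there (SD 7.31 points).

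Hoxc8 had 2 regions that were methylated in sperm and nearly free of DNAme in brain. In the homeobox exon the 6 F1 sperm libraries had 26.6, 39.7 and 56.3% (lowest, median, highest) and brain 1.20, 1.55 and 3.02%, a difference of -38.1 ± 3.53 points (adjusted p = 3.71e-07). Without column 3 it was -40.8 ± 3.06 points (adjusted p = 8.09e-08). At chr15:102991902-102991999, in an exon of a non-coding Hoxc8 transcript, the 5 F1 sperm libraries had 34.5, 39.8, 48.1, 48.6 and 54.2% and brain 2.45, 3.31 and 8.58% (-41.0 ± 2.71 points, adjusted p = 2.22e-08). F0 sperm was lower than F1 sperm in this second region, with 26.4, 31.97 and 38.1% (n = 10), and its difference from brain was -28.05 ± 1.46 points (adjusted p = 3.59e-12). In the homeobox region group means were 24.56 to 27.47% in F0 sperm and 39.85 to 41.13% in F1 sperm. F0 against F1 sperm was not tested in either region. Brain and sperm libraries did not overlap in either region.

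In the Hoxd4 region, chr2:74726142-74726259 in an intron, control F0 sperm had 32.2, 37.7 and 40.5% (n = 10) and brain 7.03, 7.78 and 11.02% (n = 8), and brain was lower by 29.3 ± 0.959 points (adjusted p = 3.18e-15). Control F1 sperm had 10.03, 45.9 and 62.6% (n = 6), so 1 sperm library overlapped the brain libraries, and the difference was -35.4 ± 6.17 points (adjusted p = 0.000199). Without control F1 sperm column 3 the F1 sperm mean was 50.1% in place of 43.5% (-42.1 ± 3.14 points, adjusted p = 7.80e-08).

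In a UTR region of Hoxb1 at chr11:96367381-96367488 all 6 F1 sperm libraries (32.3, 38.6 and 46.6%) were above all 8 brain libraries (12.7, 15.9 and 20.2%), and the difference was -22.1 ± 2.04 points (adjusted p = 3.68e-07). It was -22.0 ± 2.24 points without column 3 (adjusted p = 1.73e-06). F0 sperm had 19.0, 25.6 and 29.0% and overlapped brain (-8.19 ± 1.30 points, adjusted p = 2.00e-05). F1 sperm, with a CAST/EiJ allele, and F0 sperm, without, thus had different levels at this place, which was not tested as a comparison of its own.

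**Figure D3:**
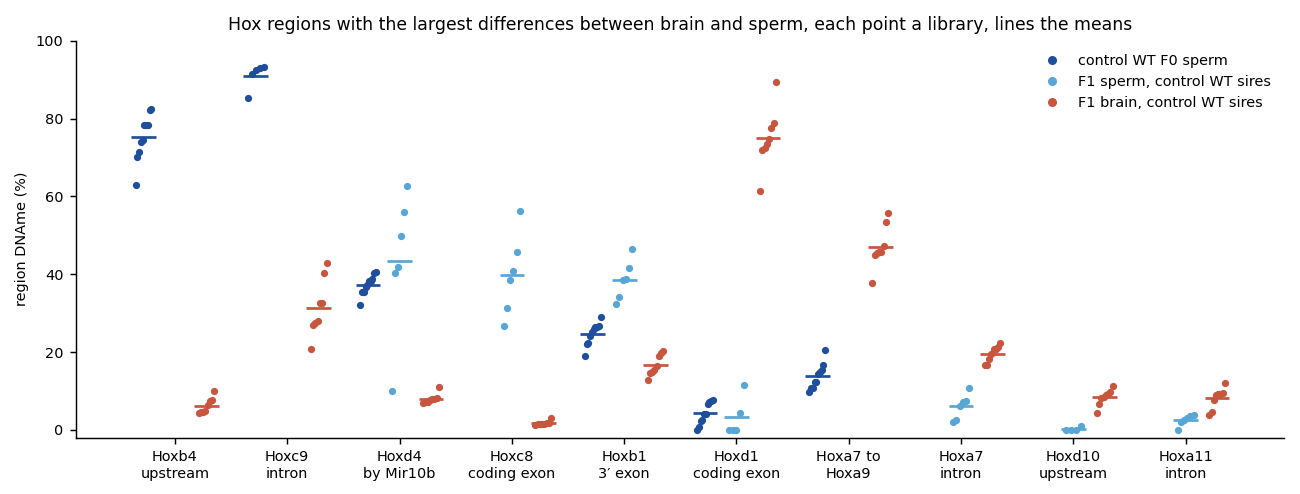
DNAme of 10 Hox regions (vertical axis, percent) in control WT F0 sperm, sperm and brain of sons of control WT sires, each point a library and each line a mean, for the sets in which a region was tested. Sperm means are the higher at Hoxb4, Hoxc9, Hoxd4, Hoxc8 and Hoxb1, and brain means at Hoxd1, Hoxa7, Hoxd10 and Hoxa11. Single points of the tissues overlap at Hoxb1, between F0 sperm and brain, and at Hoxd4, where 1 F1 sperm library lies among the brain libraries.

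The Hoxb4 and Hoxd4 regions both lie beside a gene of the miR-10 family, a microRNA family that sits next to the paralogue 4 genes of the Hox clusters. This was noticed after the values were seen. The Hoxd4 region starts 4 bases after the Mir10b hairpin (chr2:74726070-74726137), and the Hoxb4 region ends 219 bases before that of Mir10a (chr11:96317165-96317274). The mature forms, from RefSeq on GRCm38.p6, are shown with the seed in capitals, since both share it and so can pair with the same target sites, followed by the mm10 sequence from the Mir10b hairpin through the Hoxd4 region with its CpGs in capitals.
mmu-miR-10a-5p: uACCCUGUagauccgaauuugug
mmu-miR-10b-5p: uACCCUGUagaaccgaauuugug
Mir10b hairpin and the Hoxd4 region: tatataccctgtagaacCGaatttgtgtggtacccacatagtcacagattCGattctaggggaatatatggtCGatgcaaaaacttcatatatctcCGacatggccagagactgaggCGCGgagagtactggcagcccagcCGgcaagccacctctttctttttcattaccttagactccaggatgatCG

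For the miR-196 family, another microRNA family of the clusters, the nearest Hox regions carried little DNAme. Mir196b lies inside a Hoxa9 region with 0.366% in control F0 sperm and 2.47% in brain, and the regions nearest to Mir196a-1 (4216 bases away) and Mir196a-2 (763 bases away) had 1.53% and 0.783% in sperm and 4.29% and 2.29% in brain. No Hox region lay closer to Mir196a-1 or Mir196a-2, so the ground right beside them is not described here. Levels of the microRNAs themselves were not measured.

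Over whole gene windows, 24 of 34 Hox genes (70.6%) differed between brain and F1 sperm, 15 higher and 9 lower in brain, as also without column 3, against 63.9% of all 15156 genes, with a median difference of 0.851 points over Hox genes and 0.726 points over all. Against F0 sperm 28 of 38 differed (73.7%), 21 higher and 7 lower, against 71.4% of all 17357 genes, with medians of 1.03 and -0.308 points. Against F1 sperm the shares by direction, 44.1% of Hox windows higher and 26.5% lower in brain, were near those of all genes (39.8% and 24%). Against F0 sperm they were 55.3% and 18.4%, beside 31.9% and 39.5% of all genes. No test of the splits by direction was made, for regions or windows, and the low level of most Hox windows in sperm left little room for a lower value in brain. Genes lower in brain than in F1 sperm, beside Hoxb4, were Hoxc8 (2.21% and 26.5%), Hoxc10 (7.96% and 26.9%), Hoxd4 (11.1% and 27.6%), Hoxd3 (6.05% and 12.98%), Hoxb3 (2.99% and 8.87%), Hoxb1 (11.5% and 17.4%), Hoxc5 (4.29% and 9.56%) and Hoxa4 (2.16% and 3.11%). Among those higher in brain were Hoxd1 (11.5% and 0.819%), Hoxa7 (13.7% and 3.84%), Hoxd10 (5.65% and 0.922%), Hoxb5 (4.84% and 1.42%) and Hoxa11 (4.13% and 1.16%). Of these windows Hoxc8, Hoxd4, Hoxd3, Hoxb3 and Hoxb4 were lower and Hoxd1, Hoxa7, Hoxd10, Hoxb5 and Hoxa11 higher in brain against F0 sperm as well. The Hoxc8 regions described above also lie in the Hoxc5 window, and the Hoxd4 intron region also lies in the Hoxd3 window. Lower values of Hoxc5 and Hoxd3 are therefore not separate findings from those of Hoxc8 and Hoxd4. Hoxb1 turned, with brain 2.08 points higher than F0 sperm over 42 cytosines and 5.94 points lower than F1 sperm over 10. Hoxc10, Hoxc5 and Hoxa4 did not pass the test against F0 sperm (1.36, -0.17 and 0.53 points, adjusted p = 0.105, 0.602 and 0.0574). All 8 genes called in Hoxa against F0 sperm were higher in brain.

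At 4 of the regions picked for a large difference in the control groups, the tissue difference held in every group of the study. At the 7 cytosines of the Hoxb4 region measured in all sets, group means were 75.4 to 86.0% over the 7 F0 sperm groups, 75.7 to 81.2% over the 2 F1 sperm groups and 5.84 to 6.64% over the 4 brain groups. The Hoxd1 region had 1.83 to 4.27%, 3.19 to 6.16% and 69.8 to 77.4%. The Hoxd4 region had 34.6 to 41.4%, 43.5 to 45.4% and 7.37 to 9.18%, and the Hoxa7 intron 5.03 to 7.82%, 5.71 to 6.36% and 18.2 to 20.5%. In all 4 regions the highest group of a tissue was closer to the other groups of that tissue than to any group of the other tissue.

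**Figure D4:**
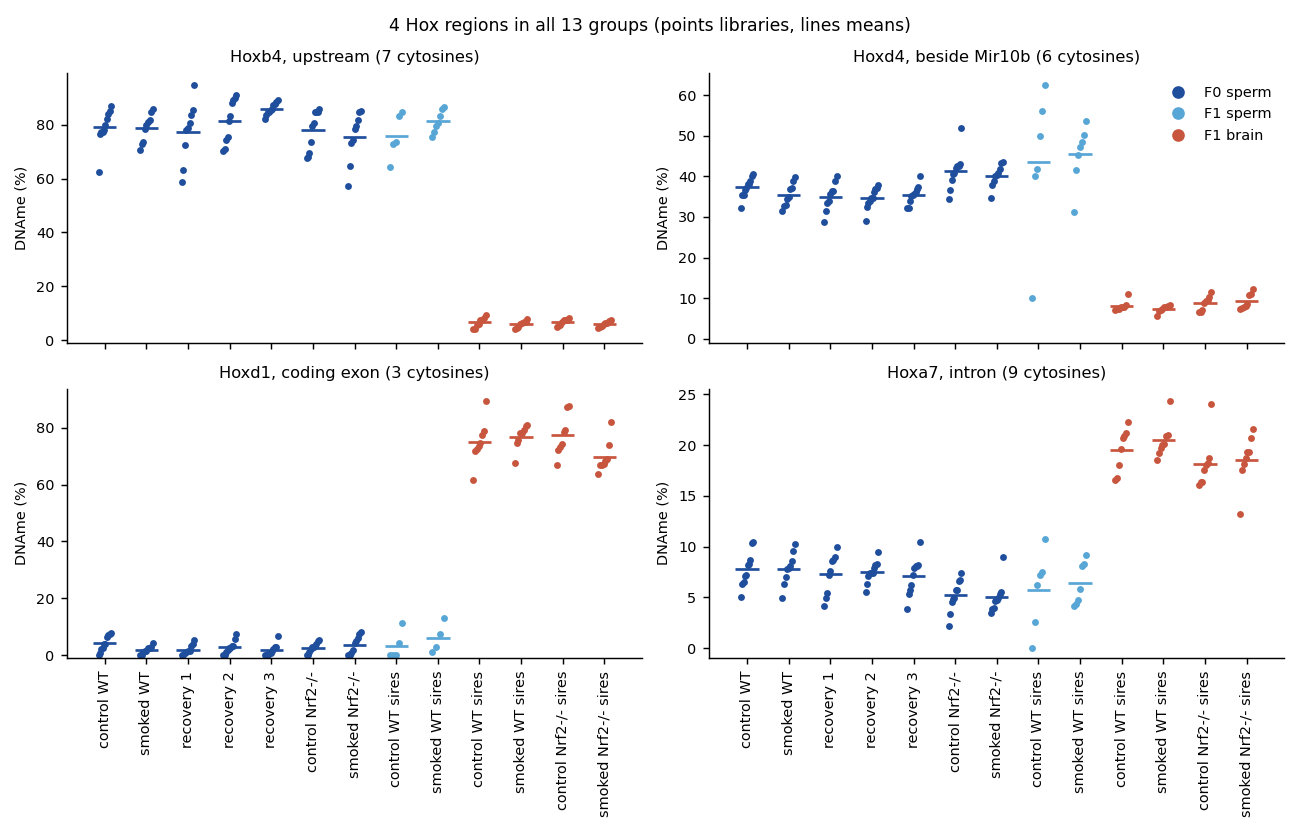
DNAme (vertical axes, percent, each panel with its own range) of the Hoxb4, Hoxd4, Hoxd1 and Hoxa7 regions in the 13 groups, points being libraries and lines means. Libraries of the 9 sperm groups and the 4 brain groups form separate bands at Hoxb4, Hoxd1 and Hoxa7. At Hoxd4 the group means are apart, and 1 F1 sperm library, with 10.03%, lies within the brain libraries (5.53 to 12.2%).

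Within a tissue the question is whether CS, recovery or the sire's genotype moved DNAme at Hox genes. In none of the 12 comparisons did limma call a Hox region at an adjusted p under 0.05, and the smallest adjusted p of a Hox region was 0.126. Over all regions few were called either. Beside each comparison the text gives the number of Hox regions at an unadjusted p under 0.05 with the share of all regions at that level. It also gives the number that met the study's size rule, under which at least 33.3% of the cytosines of a region, and its mean, differ by more than 5 points, a rule without a test. Its mean is taken over the group means of the cytosines, and can differ from the limma difference, which is between means of library values. A region under 5% cannot lose more than 5 points, and most Hox regions were under 5%. A Hox share by size below the background is therefore not read as a result.

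Smoked WT against control WT sperm had 0 of 142 Hox regions called (background 0.00159%), 6 with an unadjusted p under 0.05 (4.23%, background 3.92%) and 0 by size (background 2.61%). Differences of Hox regions ran from -3.44 to 2.14 points. The smallest p was in the coding exon of Hoxc8 at chr15:102990858-102990975, 309 bp into the gene, where control libraries had 0.245, 1.41 and 4.92% (n = 8) and smoked libraries 0, 0.473 and 1.26% (n = 9), a difference of -1.26 ± 0.523 points (adjusted p = 1). The groups overlapped.

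The recovery groups, which share the control libraries with that comparison, gave a like picture at Hox genes. Recovery 1 had 0 regions called (background 0%), 8 at the unadjusted level (5.63%, background 5.28%) and 0 by size (background 3.4%), with differences of -3.89 to 2.63 points. Recovery 2 had 0 called (background 0.00637%), 1 at the unadjusted level (0.704%, background 4.17%) and 0 by size (background 2.53%), with -3.91 to 1.77 points. Recovery 3 had 0 called (background 0.043%), 6 at the unadjusted level (4.23%, background 6.3%) and 0 by size (background 4.1%), with -2.67 to 4.38 points. The smallest p fell in coding exon regions of Hoxd11 in recovery 1 (chr2:74682900-74683365, 1.69% against 0.792%, adjusted p = 0.924) and recovery 3 (chr2:74683920-74684044, 1.58% against 0.31%, adjusted p = 0.714). In recovery 2 it was the same Hoxc8 exon (0.636% against 1.75%, adjusted p = 1). Libraries overlapped in each.

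Genotype without CS, control Nrf2-/- against control WT sperm, had 0 of 142 Hox regions called (background 0.409%), 11 at the unadjusted level (7.75%, background 7.81%), 7 higher and 4 lower (background 3.23% and 4.58%), and 0 by size (background 5.1%), with differences of -2.89 to 4.13 points. The smallest p was in the coding exon of Hoxd4 at chr2:74728415-74728530, with 0, 0.164 and 5.02% in control WT (n = 10) and 0, 5.88 and 9.25% in control Nrf2-/- (n = 9), a difference of 3.39 ± 1.04 points (adjusted p = 0.184). The same region had 1.36% in smoked Nrf2-/- against 4.68% in control Nrf2-/- (adjusted p = 0.639), where 0 Hox regions were called (background 0.00637%), 5 were at the unadjusted level (3.52%, background 5.76%) and 0 met the size rule (background 3.73%), with differences of -5.51 to 4.19 points. Libraries of the control Nrf2-/- group itself spread from 0 to 9.25% there and overlapped both other groups. The lowest of these CS differences, -5.51 ± 2.33 points (adjusted p = 0.813), was in the Hoxc8 region of the non-coding transcript, with 27.1% in smoked Nrf2-/- against 32.6% in control Nrf2-/-. By the mean over its 3 cytosines it was -4.95 points, just short of the 5 points of the size rule.

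Genotype with CS, smoked Nrf2-/- against smoked WT sperm, had 0 Hox regions called (background 0.401%), 8 at the unadjusted level (5.63%, background 7.26%) and 0 by size (background 5.35%), with differences of -4.02 to 4.70 points. The Hoxa7 intron region shown above had 3.14, 4.49 and 7.36% in smoked Nrf2-/- and 5.64, 7.97 and 9.21% in smoked WT (n = 9 each). Smoked Nrf2-/- was lower by 2.86 ± 0.827 points, with an adjusted p of 0.126, and the groups overlapped. The Hoxd4 intron region beside Mir10b had 41.4% in control Nrf2-/- against 37.3% in control WT and 40.2% in smoked Nrf2-/- against 35.5% in smoked WT, the latter with an adjusted p of 0.208, which fell to 0.037 when libraries were weighted by their quality. Over whole gene windows 0 of 38 Hox genes were called for genotype without CS (background 0.31%) or with CS (background 0.409%). A test of whether the CS difference depended on genotype called 0 of 142 Hox regions in F0 sperm (background 0% of 62830) and 0 of 158 in brain (background 0% of 80920). At the unadjusted level there were 7 in F0 sperm (4.93%, background 4.21%) and 3 in brain (1.9%, background 9.43%). In F0 sperm the library numbers of the sequencing facility ran from 1 to 20 for Nrf2-/- and from 21 to 70 for WT, so a run of numbers and genotype cannot be told apart, and the same holds in brain, with 1 to 16 and 17 to 32.

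The Hoxd cluster lies on chromosome 2, 910 kb from Nfe2l2, where a targeted chromosome can carry flanking sequence of the strain in which it was made. Of 172 Hoxd cytosines with a value in every WT F0 library, 1 (0.581%) had none in any of the 19 Nrf2-/- libraries. Over chromosome 2 it was 140 of 29009 (0.483%), and over the genome 371 of 382904 (0.0969%). Hoxa, Hoxb and Hoxc had 0 such cytosines of 213, 180 and 114.

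Sperm of sons of smoked WT sires had 0 of 64 Hox regions called against sons of control WT sires (background 0%), 2 at the unadjusted level (3.12%, background 5.38%), and 1 by size (background 13.1%), the Hoxb1 UTR region with a mean change of 5.99 points. Without control column 3 it had 5.95 points, and the Hoxc8 homeobox region met the rule as well with -5.31 points (background 10.6%). Hox differences ran from -4.36 to 5.24 points. The smallest p was in the coding exon of Hoxa4 at chr6:52190431-52190650, with 4.41, 4.79, 4.91 and 5.82% in the 4 control libraries and 4.43, 9.39 and 11.5% in 7 libraries of sons of smoked sires (3.67 ± 1.36 points, adjusted p = 0.903). A single library of the smoked group fell within the control range.

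Brain of sons of smoked WT sires had 0 of 158 Hox regions called against sons of control WT sires (background 0.00124%), 2 at the unadjusted level (1.27%, background 4.16%) and 2 by size (background 8.33%). The 2 were a Hoxd3 intron region at chr2:74734592-74734787, with a mean change of -6.39 points, and the Hoxc9 intron region, with 5.49 points. Without smoked WT sire brain column 8 both met the rule again, with -5.71 and 6.64 points (background 11%). Limma differences of Hox regions ran from -4.51 to 5.49 points. The smallest p was in the coding exon of Hoxb1 at chr11:96366842-96366994, with 3.61, 6.61 and 7.78% in control and 2.33, 4.07 and 4.97% in smoked (n = 8 each, -2.16 ± 0.958 points, adjusted p = 1). Without that column the adjusted p was 0.868.

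Brain of sons of control Nrf2-/- sires had 0 Hox regions called against control WT sires (background 0.0124%), 15 at the unadjusted level (9.49%, background 7.76%), of which 14 were higher and 1 lower (background 6.44% and 1.32%), and 1 by size (background 7.53%), the Hoxa7 to Hoxa9 region with -6.29 points. Differences ran from -6.29 to 3.98 points. The smallest p was at chr15:102972367-102972586, a Hoxc5 intron, with 1.09, 2.28 and 2.73% in control WT and 2.12, 3.48 and 5.60% in control Nrf2-/- (n = 8 each, 1.63 ± 0.456 points, adjusted p = 0.64). Over gene windows, a test added for this comparison after its region values were seen, 11 of 38 Hox genes (28.9%) had an unadjusted p under 0.05 where 11.7% of all 17579 genes did, all 11 higher in sons of Nrf2-/- sires (background 11.2% higher and 0.501% lower). After adjustment 0 were called (background 0.00569%). The 11 were Hoxa2, Hoxa3, Hoxa4, Hoxa5, Hoxa9, Hoxb3, Hoxb4, Hoxb9, Hoxc5, Hoxc11 and Hoxd11, several of which share cytosines. Hoxb4 had the smallest p, with 3.59% against 2.54% (unadjusted p = 0.00425, adjusted p = 0.314). The median change was 0.472 points over Hox genes and 0.395 over all genes, so the median of all genes shifted upward as well. Whether Hox windows shifted more than other genes was not tested.

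Brain of sons of smoked Nrf2-/- against smoked WT sires had 0 Hox regions called (background 0.0816%), 12 at the unadjusted level (7.59%, background 13.9%), 9 higher and 3 lower (background 3.07% and 10.8%), and 2 by size (background 17.5%), Hoxd1 with -7.09 and Hoxc9 with -6.02 points. Differences ran from -7.09 to 4.11 points. Without smoked WT column 8 these 2 had -6.53 and -7.17 points, and the Hoxc10 region at chr15:102968715-102968861 joined them with -5.30 (background 20.1%). Without smoked Nrf2-/- columns 2, 4 and 5, Hoxd1 had -8.87 points, Hoxc9 no longer met the rule with -3.00, and the Hoxd3 intron region did with 6.77 points (background 12.1%). Limma without these 3 libraries called 0 of 156 Hox regions, and 11 of 80596 regions in all. The smallest p was in a Hoxa3 intron at chr6:52175348-52175792, with 0.893, 1.67 and 2.16% in smoked WT and 1.74, 2.72 and 3.38% in smoked Nrf2-/- (n = 8 each), overlapping groups that differed by 1.11 ± 0.312 points (adjusted p = 0.14). Leaving out smoked WT sire brain column 8 gave an adjusted p of 0.0925 there and still 0 Hox regions called, while the calls over all regions went from 66 to 1177.

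The effect of CS within Nrf2-/- sires gave 0 Hox regions called (background 0.00124%), 6 at the unadjusted level (3.8%, background 9.64%) and 2 by size (background 16%). These were the brain-methylated Hoxd1 region, with -7.66 points, and the Hoxa7 to Hoxa9 region, with 6.52 points, the lowest and the highest of the Hox differences. Without smoked Nrf2-/- columns 2, 4 and 5 they had -9.43 and 7.13 points and again met the rule (background 10.8%), and limma called 0 of 156 Hox regions. Hoxd1 libraries had 66.8, 76.4 and 87.8% in sons of control Nrf2-/- sires and 63.8, 67.8 and 82.0% in sons of smoked Nrf2-/- sires (adjusted p = 0.432, and 0.996 without the 3 libraries), with overlap. These brain comparisons share groups, so their changes at a region are not separate findings.

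**Figure D5:**
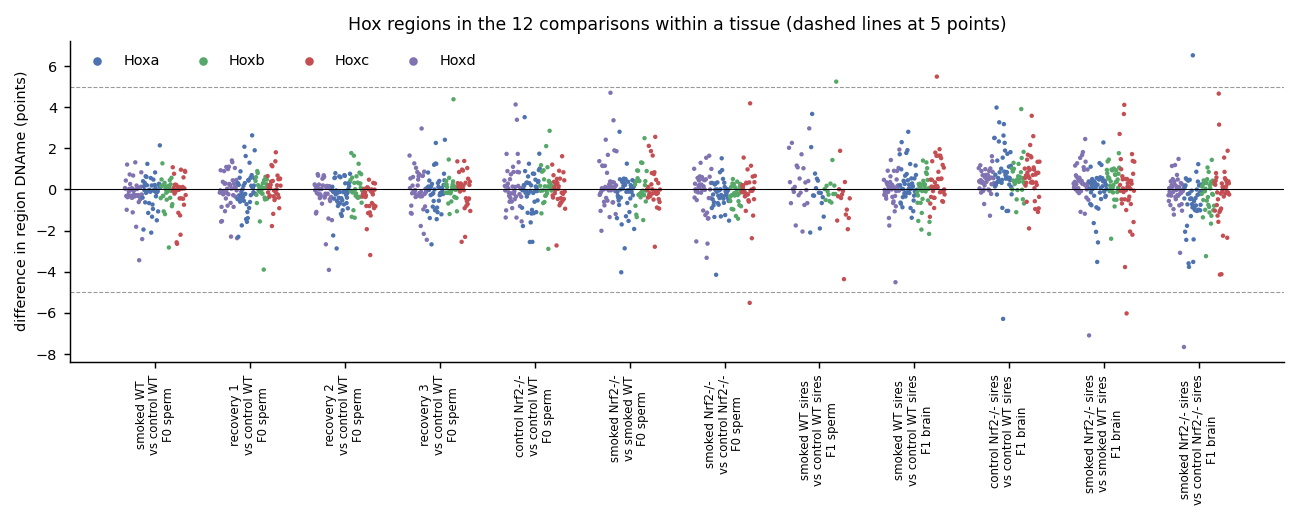
Differences in DNAme of every Hox region (vertical axis, percentage points) in the 12 comparisons within a tissue (horizontal axis), coloured by cluster, with dashed lines at 5 points up and down. Nearly all points lie within the lines, and the few outside are single regions of Hoxa, Hoxb, Hoxc or Hoxd.

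The precision of these comparisons was narrow for most Hox regions. In F0 sperm the 95% interval of the difference lay wholly within 5 points of 0 for 129 to 133 of 142 regions, and its median extent was 1.19 to 1.30 points to either side. In brain it did so for 142 to 147 of 158 regions (1.37 points), and in F1 sperm for 50 of 64 (1.72 points). For the remaining regions, the widest of which had an interval of 15.9 points to either side in F1 sperm, a difference of 5 points was not detectable or not excluded at this number of libraries. Some of these carried much DNAme. In smoked against control WT sperm they included the Hoxb4 region (74.9% in control, SE 3.06 points) and a Hoxa3 region (chr6:52199921-52200116, 30.9%, SE 3.33). The Hoxd4 intron (37.3%, SE 1.44) and Hoxb1 UTR (24.8%, SE 1.29) regions were not among them.

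Partners and controllers of Hox genes gave values beside those of the clusters. Against F1 sperm, where 39.8% of all 15156 genes were called higher and 24% lower in brain, 2 of 8 tested TALE cofactors, the homeodomain proteins that bind DNA together with HOX proteins, were higher in brain and 4 lower, with Pbx2 at 23.1% against 38.8%. Of the ParaHox and Evx genes, the nearest relatives of the clusters, 4 of 6 were higher and 2 lower, with Evx1 at 2.93% against 6.64% and Gsx2 at 4.33% against 0.756%. Of 18 genes of the Polycomb and trithorax complexes, which hold Hox genes off or on, 8 were higher and 3 lower, with Phc2 at 22.5% against 39.5% and Cbx8 at 47.1% against 31.0%. Of 12 genes of retinoic acid, the signal that turns on head-end Hox genes, 5 were higher and 4 lower, with Aldh1a1 at 79.5% against 54.9% and Cyp26c1 at 21.3% against 1.12%. Median changes of the 4 lists were -0.831, 1.21, 0.625 and -0.504 points, beside 0.726 over all genes, and with so few genes in a list nothing is read from its share. Within a tissue, where 44 to 47 genes of these lists were tested in each comparison, 0 were called except Ring1, a Polycomb subunit, with 16.6% in smoked Nrf2-/- against 14.4% in smoked WT sperm (adjusted p = 0.0287), in a comparison that called 0.409% of all genes.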

How the data were processed

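RRBS libraries of 67 F0 sperm, 13 F1 sperm and 32 F1 brain samples were analysed, in 13 groups taken from the labels. Sperm came from the cauda epididymis and vas deferens after lysis of somatic cells. Per the labels and the study's methods, the authors cut DNA with MspI and TaqαI, sequenced single reads and aligned them to mm10 with Bismark (version not given in the sources used here), and deposited 1 table per group with the percent methylation of each cytosine. Without read counts the depth behind a percent is unknown, so no counting interval is given, and the number of cytosines with a value stands in for it. Columns could be matched to groups but not to single samples and are named by their order. A control WT brain sample whose strain label reads Nrf2-/- against its WT title was kept by title, and its column is unknown. Comparisons that use this group may therefore include a library of the other genotype.

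Cytosines with a value in at least 4 libraries of every group of a set were joined into regions when no more than 100 bp apart, and regions of at least 3 cytosines and over 50 bp were kept. A library's region value was the mean of its deviations from each cytosine's mean, added back to that mean, and needed 50% of the cytosines. Gene windows used GENCODE vM21. Region and window values were compared with limma 3.58.1 (R 4.3.3) over all groups of a set, or the control groups for brain against sperm, with Benjamini-Hochberg adjustment over all regions or genes, calling an adjusted p under 0.05. Nothing says which samples share a litter, so p-values measure the spread between these samples. The scripts were tested on simulated data, with changes placed only in regions of middle DNAme, so the test does not cover regions near 0. Python 3.11.15, numpy 2.4.6, pandas 2.3.3 and matplotlib 3.10.9 were used.

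The Hox genes and the other gene lists were chosen with earlier results of these data known. Named were the 3 lowest and highest windows of each tissue, the region with the smallest p within a tissue, and between tissues the 3 largest differences each way and 2 regions per cluster. Merging the strands, other joining distances, library minimums, scales, weights and single libraries left out were tried, and leaving out the libraries that stood apart was chosen after seeing the data. A sequence and a gene are not reported here.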

Additional observations from a re-analysis of the deposited data

Results flagged for a closer look

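In 7 of 51 groups of libraries tested at the named regions, 1 library lay far from the others of its group. The groups share libraries and several lie near 0%, so no rate by chance is set beside this count. In control WT F0 sperm a library had 2.04% at the Hoxd11 region chr2:74683920-74684044 where the others had 0 to 0.752% (n = 9), and a library had 85.2% at the Hoxc9 intron region where the others had 91.4 to 93.3% (n = 5). A smoked Nrf2-/- library had 6.82% at the Hoxd4 exon region chr2:74728415-74728530, the others 0 to 2.53% (n = 9). A control F1 sperm library had 1.05% at the Hoxd10 region, the others 0 (n = 4). In control brain, column 8 had 8.58% at the Hoxc8 region chr15:102991902-102991999 (others 2.45 to 4.3%) and 3.02% at the Hoxc8 homeobox region (others 1.2 to 1.86%), and column 6 had 11% at the Hoxd4 intron region (others 7.03 to 8.2%, n = 8 each). The cause was not tested in any of the 7.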

How the results depend on the processing

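No paired analysis was possible because the columns carry no replicate numbers. Over the counts of Hox regions and windows, 142 of 166 values under other settings stayed within 1.5 times the value reported, 13 were lower and 11 higher, and none reversed. Many counts within a tissue were 0. A count that stayed at 0 is among the 142, and a 0 cannot reverse, so the tally says little of those. The regions named by rule kept their direction and side of the threshold in all 126 values under other settings and all 338 with a library left out. The Hoxd4 intron region in smoked Nrf2-/- against smoked WT sperm was not among these, and with array weights it crossed the threshold. Leaving out 1 library at a time gave 23 to 28 Hox regions higher and 6 to 8 lower in brain than in F1 sperm, and 13 to 15 Hox gene windows higher and 8 to 9 lower. It gave 0 Hox regions in each of the 12 comparisons within a tissue, and 0 windows in the 2 comparisons of genotype in F0 sperm. Between brain and sperm, F0 sperm in place of F1 sperm gave 92 regions higher and 9 lower of 159 tested. A minimum of 6 libraries per group gave 3 higher and 2 lower of 7 regions, and 6 higher and 4 lower of 14 windows, and windows cut to 500 bp around the start gave 7 higher and 0 lower of 18. The number of features tested differed in each. Counts under the 6-library and 500 bp settings are given without the share over all features, so nothing is read from them. Array weights gave 1 call for smoked Nrf2-/- against smoked WT sperm, the Hoxd4 intron region (40.7% against 35.4%, adjusted p = 0.037), where 0.581% of all regions were called, and the cause was not tested. By the size rule, with the share of all regions under the same setting in parentheses, joining over 300 bp gave 2 Hox regions in recovery 1 (5.52%), 1 in recovery 3 (6.96%), 1 for genotype without CS (8.28%), 4 with CS (8.3%) and 1 for CS in Nrf2-/- sperm (6.6%), of 121 Hox regions, and 0 of 62 in F1 sperm (19.7%). Merging strands gave 1 for genotype without CS (5.49%) and 1 with CS (5.76%) of 143, and 2 of 67 in F1 sperm (15.3%). A 10 point threshold gave 0 in F1 sperm (2.27%) and in the 4 brain comparisons (0.87 to 6.6%), and 6 libraries per group gave 1 for CS in WT sires' brain (6.4%). Each of these Hox shares was below that of all regions, which is not read as a result, since most Hox regions had little DNAme to lose. Alternatives without the libraries that stood apart were chosen after seeing the data, and by size gave 2 in F1 sperm (10.6%) and 2 or 3 in brain. Depth per cytosine is unknown, and F1 sperm had the fewest cytosines and libraries.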
